A study of Mus musculus with 3 samples.

Results

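The spleen of diabetic mice was compared between day 139 and day 0 after islet transplantation, on 2 of the 3 arrays of the study, 1 for each day. Of the 55681 gene probes on the array, 31164 were well above background on at least 1 of these 2 arrays, and these are the probes described here, outside the genes that the study related to the spleen factor Tlx1. In the study, male C57BL/6J mice made diabetic with streptozotocin, a toxin of the insulin-producing beta cell, received syngeneic islets at 2 sites, 25 into the spleen and 100 beneath the kidney capsule. The day 0 spleen was taken immediately after the transplantation. The day 139 spleen was harvested after a nephrectomy on day 100 had taken out the capsular graft, and a day 2 spleen was measured beside them. The labels list the capsular graft among the sample characteristics for day 139 alone, whereas the treatment protocol gives it for all samples. The number of mice behind each array and their age at harvest are not given in the labels, and a spleen that had received no islets was not analyzed here. The day 0 spleen was thus not an untouched spleen: it had just been punctured, in a mouse with diabetes of a few days. Age, glycemia, nephrectomy and the days since grafting differ together between the arrays and cannot be told apart.

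The spleen filters blood and holds lymphocytes. Its white pulp is made of B cell follicles and T cell zones, and antigen can set off germinal centers there, in which B cells mutate and switch their antibody genes before some of them become plasma cells. Its red pulp holds macrophages that clear old red cells, a reserve of monocytes and neutrophils, and, in the mouse, sites where red cells and platelets are made throughout life. A thin layer of mesothelial cells covers the capsule, and fat and the tail of the pancreas lie close to it.

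The arrays carried the profile of spleen on both days. The B cell genes Cd79b and Ms4a1 had normalized signals of 18080 and 9330 on day 0 and 40170 and 16320 on day 139. The red pulp macrophage genes Slc40a1, an iron exporter, and Spic, their lineage factor, had signals of 9820 and 13171 on day 0 and 11040 and 9906 on day 139. A signal here is the brightness of a probe after quantile normalization of the 3 arrays, in the arbitrary units of the scanner. Levels of different probes were not compared.

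A probe was counted as higher when its ratio of day 139 over day 0 was at least 1.5 and its Z-score at least 2, and as lower when the ratio was at most 0.66 and the Z-score at most -2. The Z-score relates the log2 ratio to the SD found among 1000 probes of similar brightness, so it sets a probe against other probes and not against replicate mice. With 1 array a day there was no test and no p-value, and "rose" and "fell" below are used for genes past both criteria on these arrays. By this rule 804 probes (2.58%) were higher and 648 (2.08%) lower. Matched to RefSeq genes, with the brightest probe for each gene, 15506 genes were measured, of which 392 (2.53%) rose and 343 (2.21%) fell. The log2 ratio was above 0 in 50.2% of these genes and below 0 in 49.7%, with a median of 0.00. Among 5999 probes for long intergenic noncoding RNA regions, 102 (1.7%) were higher and 116 (1.93%) lower. The error of the log2 ratio estimated by the scanner software had a median of 0.32 for probes with a mean signal below 100, against 0.20 at signals of 1000 and above. That error covers the spots only. A probe that did not stand well above background on one day is given a bound ("at least"), in which its dim side counts as the lowest signal well above background on that array, or as its own signal if that was higher.

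Before normalization, the 8 spike-in RNAs that could be read on all arrays were dimmer on day 139, at a median of 65.6% of their day 0 signal. Scaling to them moves the median log2 ratio of all probes from -0.03 to 0.36, so each log2 ratio below is relative to a center that this choice shifts, and medians of lists that change sign with it are marked.

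**Figure D1:**
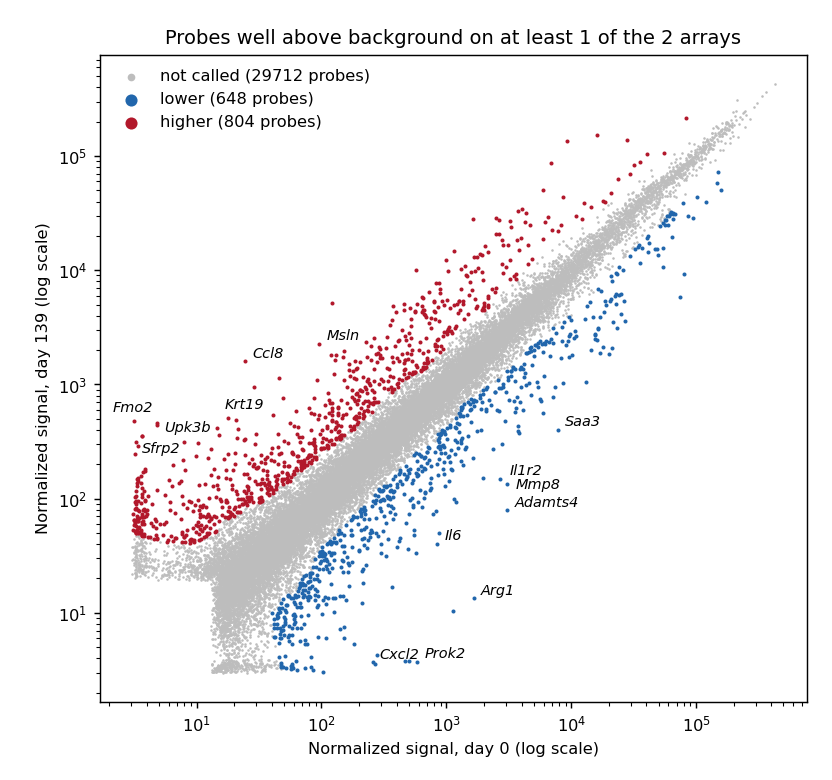
Normalized signal of each probe on day 0 (x axis) against day 139 (y axis), both on log scales in arbitrary scanner units, 1 array a day. Red points are the 804 higher probes, blue points the 648 lower probes and gray points the rest, and the named genes lie far from the diagonal (Ccl8, Msln and Upk3b above it, Arg1, Adamts4 and Cxcl2 below it).

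Of 43 lists of genes written from general knowledge, the 5 with the lowest median log2 ratio were acute phase proteins (-2.46), inflammatory chemokines (-2.09), matrix proteases and their inhibitors (-1.55), glucocorticoid and fasting genes (-1.52) and inflammatory cytokines (-1.49). The highest medians were those of mesothelial genes (4.56), exocrine pancreas genes (1.96) and plasma cell genes (1.25), although the exocrine median was 0.71 over genes well above background on both arrays and 0.39 with a normexp background correction, below the plasma cell median there (1.21 and 1.16). Spleen is a mixture of cells, and in such bulk RNA fewer cells of a type and less RNA per cell cannot be told apart.

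**Figure D2:**
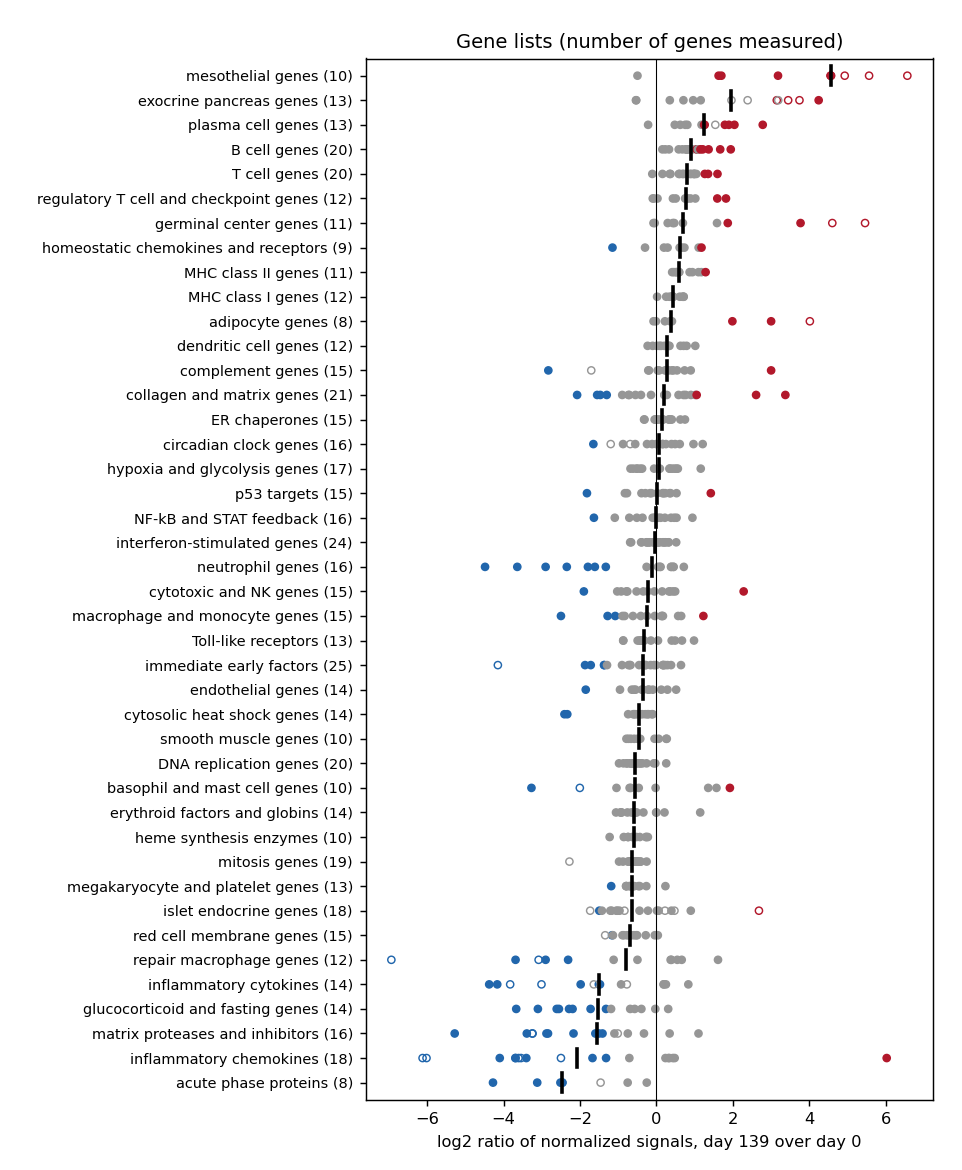
Log2 ratio of normalized signals, day 139 over day 0 (x axis), for the genes of 42 lists with more than 1 measured gene (y axis, number of genes measured in brackets). Each point is 1 gene (red rose, blue fell, gray neither, open when well above background on only 1 of the 2 arrays) and black bars are list medians, which run from -2.46 for acute phase proteins to 4.56 for mesothelial genes.

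Many chemokines that call neutrophils, monocytes and eosinophils into tissue had higher signals just after transplantation than on day 139. Of 18 inflammatory chemokines measured, 11 fell and 1 rose. Cxcl2 and Cxcl3, ligands of the neutrophil receptor Cxcr2, had signals of 257 and 279 on day 0, 38.9 and 18.2 on day 2, and were not well above background on day 139, at least 13.3-fold and 14.5-fold lower. Cxcl1, another ligand of that receptor, went from 158 to 40.7 and was likewise not well above background on day 139, at least 8.21-fold lower. The receptor itself fell too: the signal of Cxcr2 was 1443 on day 0, 242 on day 2 and 283 on day 139. Ccl2 and Ccl7, which act on the monocyte receptor Ccr2, had signals of 1955 and 867 on day 0, 1005 and 412 on day 2, and 151 and 50.4 on day 139. Their log2 ratios were -3.69 and -4.10, against a scanner error of 0.21 and 0.24. The receptor Ccr2 itself (776, 636 and 419) and Ccl12 of the chemokine list (146, 144 and 172) did not pass the criteria. The eosinophil chemokine Ccl24 fell from 1196 through 853 to 92.7, and Ccl17, made by dendritic cells, was at least 11.1-fold lower. Not all chemokines of the list were lower. The interferon-induced Cxcl9 and Cxcl10 had log2 ratios of 0.43 and 0.34, Ccl5 of T and NK cells had 0.48, and none of them passed the criteria. The 2 probes of Cxcl11 differed in sign (0.31 and -0.39). The median over the 13 chemokines well above background on both arrays was -0.71.

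Ccl8, a further monocyte and T cell chemokine, was the only member of this list that rose. Its probe, on chromosome 11 of the mm9 build (81930108 to 81930167), had a signal of 24.5 on day 0, 379.8 on day 2 and 1599.8 on day 139. This was the largest ratio of all genes with a symbol that were well above background on both arrays, 65.3-fold, with a log2 ratio of 6.03 and a scanner error of 0.26.

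Cytokines followed the chemokines. Of 14 measured, 7 fell and 0 rose. Il6, an inducer of acute phase proteins, had a signal of 841 on day 0, of 50.9 on day 2 and of 40.4 on day 139, a log2 ratio of -4.38. Il1r2, the decoy receptor of interleukin 1, fell from 2699.6 through 238 to 150.0. Il1b itself was 3920 on day 0, 721 on day 2 and 1376 on day 139, a log2 ratio of -1.51, with its lowest signal on day 2. The interleukin 1 antagonist Il1rn and the prostaglandin synthase Ptgs2 were not well above background on day 139, at least 4.03-fold and 3.96-fold lower. Tnf (169, 82.0 and 192), Nos2 (280, 268 and 332) and Il10 (30.8, 19.0 and 55.0) did not pass the criteria. Feedback genes of these pathways had a median of -0.01 over 16 genes, which became 0.38 with spike-in scaling. Only Socs3 among them, the inhibitor of signaling through STAT3, fell, from 7204 to 2314.

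Some promoters of genes that fell are shown, picked because they hold the letters of known binding motifs. The sequences are the 250 bases before the RefSeq start (GRCm38.p6, 1 start per gene), in lower case, with capitals for GGNNTTTCC (a core of the NF-kB motif) or TGACTCA (the AP-1 motif) on either strand. Of all 32841 promoters searched, 4.93% held the NF-kB motif and 4.46% the AP-1 motif. Among the inflammatory chemokines past the criteria, 7 had a promoter among those searched. These 7 include Ccl8, which rose and held neither motif, and lack Ccl2, Ccl7 and Ccl24. The NF-kB motif was held by 4 of the 7 (Cxcl1, Cxcl2, Cxcl3 and Ccl9). In other lists, genes past the criteria held it in 2 of 6 cytokines and 2 of 4 acute phase genes. It was in 0 of 7 neutrophil genes and 0 of 6 glucocorticoid and fasting genes. In the list of matrix proteases, inhibitors and receptor, 6 genes past the criteria had a promoter, and 3 held the AP-1 motif (Mmp3, Mmp13 and Plaur). The AP-1 motif was in 2 of the 6 cytokines, 1 of the 6 glucocorticoid and fasting genes, and 0 of the 4 acute phase genes. It was also in 0 of the 7 chemokines and 0 of the 7 neutrophil genes. Both motifs were chosen with the values of the genes known, and a match is a description of the letters and not a site shown to be in use.
Cxcl1 (chr5:90890995-90891244, plus strand): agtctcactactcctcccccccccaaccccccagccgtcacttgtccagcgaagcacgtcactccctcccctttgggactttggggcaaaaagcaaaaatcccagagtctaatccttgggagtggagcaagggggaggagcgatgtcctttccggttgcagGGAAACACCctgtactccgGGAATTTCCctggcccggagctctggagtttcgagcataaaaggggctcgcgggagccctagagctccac
Cxcl2 (chr5:90903649-90903898, plus strand): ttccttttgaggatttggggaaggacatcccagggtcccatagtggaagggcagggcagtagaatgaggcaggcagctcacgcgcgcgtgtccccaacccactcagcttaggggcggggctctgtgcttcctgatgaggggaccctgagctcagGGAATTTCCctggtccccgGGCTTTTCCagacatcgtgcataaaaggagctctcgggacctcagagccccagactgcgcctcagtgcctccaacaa
Cxcl3 (chr5:90785851-90786100, plus strand): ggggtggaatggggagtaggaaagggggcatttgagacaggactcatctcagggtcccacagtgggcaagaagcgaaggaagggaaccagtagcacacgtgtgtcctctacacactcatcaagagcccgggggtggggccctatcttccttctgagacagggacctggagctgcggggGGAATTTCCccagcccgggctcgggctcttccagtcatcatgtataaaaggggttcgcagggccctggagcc
Il6 (chr5:30012864-30013113, plus strand): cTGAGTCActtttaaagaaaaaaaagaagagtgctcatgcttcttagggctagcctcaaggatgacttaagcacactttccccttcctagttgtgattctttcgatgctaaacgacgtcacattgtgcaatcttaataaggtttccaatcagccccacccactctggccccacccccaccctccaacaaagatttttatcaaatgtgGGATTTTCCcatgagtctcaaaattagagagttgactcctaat
Mmp3 (chr9:7445572-7445821, plus strand): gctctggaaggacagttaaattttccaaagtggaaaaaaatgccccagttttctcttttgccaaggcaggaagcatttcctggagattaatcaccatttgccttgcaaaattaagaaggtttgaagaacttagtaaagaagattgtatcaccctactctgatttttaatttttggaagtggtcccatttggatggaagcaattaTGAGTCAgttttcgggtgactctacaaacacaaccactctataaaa
Mmp13 (chr9:7272264-7272513, plus strand): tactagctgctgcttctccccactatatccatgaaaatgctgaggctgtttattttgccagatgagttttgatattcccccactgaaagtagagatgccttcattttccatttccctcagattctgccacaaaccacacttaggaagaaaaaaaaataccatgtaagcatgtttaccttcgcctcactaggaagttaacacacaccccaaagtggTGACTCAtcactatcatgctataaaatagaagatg

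Proteins made in large amounts during inflammation had lower signals in 8 of 8 measured acute phase genes, and 5 of them fell. Saa3, a serum amyloid made in tissues, differed from the cytokines in its course: its signal was 7834 on day 0, 13382 on day 2 and 403 on day 139, a log2 ratio of -4.28. Saa1 had the same course (2367, 3483 and 272), and these relatives are similar enough in sequence that their probes may read each other. Lcn2, which binds bacterial siderophores, and the hemoglobin carrier Hp were lower by day 2 already, with signals of 9597, 2346 and 1738 and of 15399, 3339 and 2693.

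Neutrophil genes went different ways. Of 16 measured, 7 fell and 0 rose, and the median was -0.11 (0.30 with spike-in scaling). Most of those that fell are known as genes of maturing or circulating neutrophils. Mmp8, the neutrophil collagenase, had signals of 3034 on day 0, 140 on day 2 and 135 on day 139, and Retnlg had 13195, 2214 and 1055. The calcium-binding S100a8 and S100a9, the main proteins of the neutrophil cytosol, fell from 53944 to 15540 and from 147010 to 58589. Several genes of granules that are filled in the bone marrow stage did not pass the criteria. Elane went from 1126 to 1532, Mpo from 1997 to 2152, Ltf from 1368 to 1864 and Camp from 5295 to 8696. Nor did Ly6g (517, 352 and 532) and Csf3r (39796, 38837 and 33261), a surface marker and a growth factor receptor of mature neutrophils. Prok2, a secreted peptide of neutrophils, was 582, 22.6 and then not well above background, at least 30.2-fold lower.

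**Figure D3:**
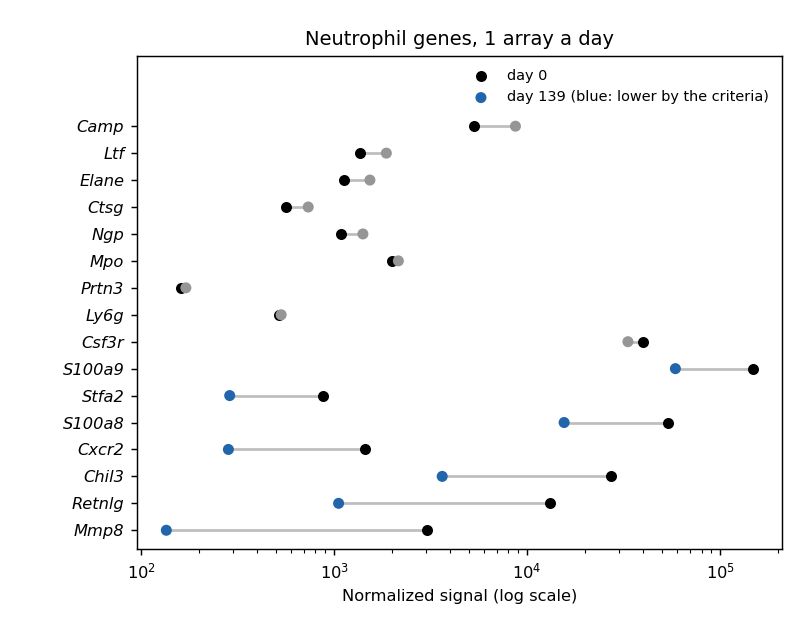
Normalized signals (x axis, log scale, arbitrary scanner units) of 16 neutrophil genes (y axis) on day 0 (black) and day 139 (blue when lower by both criteria, gray otherwise), 1 array a day. The 7 blue genes run from Mmp8 (3034 to 135) to S100a9 (147010 to 58589), and the gray genes above them stay near or above their day 0 signals.

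Arg1, the arginase of wound-healing macrophages, had the largest drop given as a bound. Its signal was 1654 on day 0 and 2602 on day 2, and on day 139 it was not well above background, at least 85.8-fold lower (chromosome 10 of mm9, 24636194 to 24636253). Spp1, or osteopontin, was 114, 648 and again not well above background, at least 5.89-fold lower. The chitinase-like Chil3, which neutrophils and macrophages share, fell from 27148 through 8128 to 3629, and its probe may read the close relative Chil4 as well. Of the 12 genes of the repair macrophage list, 5 fell and 0 rose, and its median of -0.81 was -0.06 over the 10 genes well above background on both arrays. Other members of the list had their highest signal on day 2 without passing the criteria on day 139: Trem2 was 184, 1738 and 242, and Folr2, the folate receptor of resident macrophages, was 26.6, 667 and 81.3.

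Genes of macrophages and monocytes were mixed. The log2 ratio was below 0 in 9 of 15, against 49.7% of all genes, and 3 fell and 1 rose. The median of -0.25 became 0.13 with spike-in scaling. Marco, the scavenger receptor of the marginal zone, fell from 22779 to 9380, Msr1 from 377 to 66.5 and Hmox1, which breaks down heme, from 35150 to 16617. Timd4, a receptor for dying cells, rose from 216 to 507. The macrophage markers Adgre1 (2266 to 3547), Csf1r (30569 to 33411) and Cd68 (6455 to 5424) did not pass the criteria.

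Of 16 genes of matrix-degrading proteases, their inhibitors and receptor, 10 fell and 0 rose. Adamts4, which cuts the proteoglycans aggrecan and versican, fell most of all genes well above background on both arrays. Its signal was 3084 on day 0, 677 on day 2 and 79.1 on day 139, a log2 ratio of -5.28 with a scanner error of 0.22. Versican itself (Vcan) had a signal of 370.0 on day 0 and was not well above background on day 139, at least 19.2-fold lower. Timp1, an inhibitor of these enzymes, fell from 5972 through 3650 to 567. The stromelysin Mmp3 was 1055, 1215 and 143, and the collagenase Mmp13 was 165, 63.4 and not well above background, at least 8.59-fold lower. Mmp2, a gelatinase of stromal cells, had signals of 139, 742 and 298 and did not pass the criteria.

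Matrix genes went both ways. Of 21 measured, 3 rose and 4 fell, with a median of 0.21. The basement membrane collagens Col4a1 and Col4a2 fell from 2543 to 602 and from 2746 to 936, and fibronectin (Fn1) from 13468 to 4856. The small proteoglycans rose: Dcn, or decorin, was 1585 on day 0, 2067 on day 2 and 9670 on day 139, and Lum, or lumican, was 17.3, 37.5 and 179.9. The fibrillar collagens peaked on day 2 and were close to their first level on day 139, as Col1a1 shows with signals of 1179, 11182 and 1361.

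Genes that glucocorticoids and fasting induce fell in 8 of 14 cases, and 0 rose. The metallothioneins Mt2 and Mt1, which bind zinc and are induced by glucocorticoids and metals, fell from 74246 through 17505 to 5821 and from 79677 through 19340 to 9257, and their probes may read each other. Fkbp5, a target of the glucocorticoid receptor, was 4852, 1379 and 1467, with much the same signal on day 2 as on day 139. Pdk4 and Angptl4, induced in fasting and in diabetes, had similar signals on day 0 and day 2: Pdk4 was 672, 704 and 114, and Angptl4 was 8349, 7549 and 1708. Sgk1 (1141, 1113 and 1117) and Txnip (3452, 3927 and 4270) did not pass the criteria.

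Immediate early factors, which cells switch on within minutes of a stimulus, fell in 5 of 25 cases and rose in 0, and their median of -0.34 became 0.06 with spike-in scaling. Fosl1, an AP-1 subunit, was not well above background on day 139 after a signal of 108 on day 0, at least 5.60-fold lower, and Fosl2 fell from 1253 to 380. Classical members did not pass the criteria: Fos was 345, 204 and 185, Egr1 1135, 1049 and 709, and Jun 2878, 1919 and 2099. In the promoters of this list, the cyclic AMP response motif TGACGTCA, held by 1.55% of all promoters, was found in that of Dusp1, the phosphatase of stress kinases, which fell from 1542 to 599, and in 1 of the 3 listed for Maff, a small partner of AP-1 factors, which fell from 202 to 77.9. Cytosolic heat shock genes were lower in 14 of 14 cases, with a median of -0.46 (-0.02 with spike-in scaling). Of these, Hspb1 fell from 16236 through 5556 to 3055 and the inducible Hspa1a from 115 to 22.8. Cdkn1a, the inhibitor of cyclin-dependent kinases that p53 and stress induce, fell from 581 to 165, while the median of 15 p53 targets was 0.02.

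On the other side, B cell genes had higher signals in 20 of 20 cases, against 50.2% of all genes. Of these, 6 rose and 0 fell, and the median was 0.91. The antigen receptor partners Cd79a and Cd79b rose from 4836 to 12454 and from 18080 to 40170. Fcer2a, the low-affinity IgE receptor of follicular B cells, was 339 on day 0, 632 on day 2 and 1080 on day 139, and the kinase Blk was 79.6, 93.7 and 306. On day 2 the signal was above that of day 0 in 11 of the 20 genes, with a median log2 ratio of day 2 over day 0 of 0.02. Cr2, the complement receptor of marginal zone and follicular B cells, went from 13762 to 16161 without passing the criteria.

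Genes of antibody secretion were higher too. Of 13 plasma cell genes, 12 had a log2 ratio above 0 and 6 rose. Tnfrsf17, the survival receptor BCMA, was 40.0, 57.6 and 275. Mzb1 and Derl3, which help fold and clear proteins in the endoplasmic reticulum of plasma cells, rose from 2767 through 3840 to 11388 and from 682 through 924 to 2537. Syndecan 1 (Sdc1), a surface marker of these cells, was 147, 190 and 509, and the J chain (Jchain) that links IgM and IgA was 29396, 21253 and 69806. The factor Xbp1, which drives secretion in many cell types, had signals of 24083, 12675 and 20686 and did not pass the criteria. General chaperones of the endoplasmic reticulum had a median of 0.16, with 0 of 15 past the criteria.

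Probes described by the array as immunoglobulin, a set chosen after its values had been seen, followed the same direction. Of 132 probes, 114 were higher and 4 lower, with a median log2 ratio of 2.28 and a range from -1.60 to 5.04. Some of these regions are similar enough between members that a probe may read several genes, so the probes are not independent. The probe for the heavy constant region mu had signals of 28021 on day 0, 19206 on day 2 and 137810 on day 139. Probes for switched classes that the array names were also higher: the 2 for gamma 1 went from 2137 to 5674 and from 574 to 10044, and that for gamma 2C from 16.5 to 224. A probe for the kappa constant region rose from 82349 to 217110, while a dim probe matched to Igkc went from 55.6 to 79.8 and did not pass the criteria. The probes for lambda constant 2 and 3 rose by 1.37 to 1.41 on the log2 scale. Of the 4 lower probes, 1 was for kappa variable 12-89. The other 3 carry the name of the J558 heavy chain family, with mm9 starts on chromosome 12 at 114496985, 114497090 and 114498348. These positions lie beyond the gamma 2C probe (start 114523536), on the side away from the mu probe (start 114659630). The array does not name the region they read, so the rise of the named switched classes does not cover it. The brightest of these 3 probes fell from 148680 to 72623. A further J558 probe, with its start at 116610609, rose from 250.3 to 2155.

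**Figure D4:**
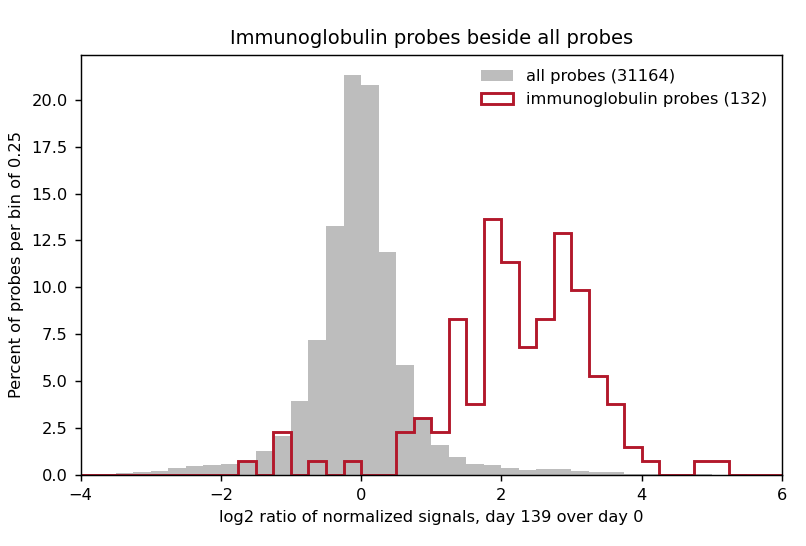
Distribution of log2 ratios, day 139 over day 0 (x axis), as percent of probes per bin of 0.25 (y axis), for all 31164 probes (gray) and the 132 immunoglobulin probes (red line). The immunoglobulin probes center on a median of 2.28, whereas all probes center near 0.

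Germinal center genes rose in 4 of 11 cases, and 0 fell. Nuggc, a nuclear GTPase of germinal center B cells, was not well above background on day 0 and had a signal of 146 on day 139, at least 11.3-fold higher. Rgs13, a regulator of chemokine receptor signals in the same cells, was 24.4 on day 0, 20.0 on day 2 and 334 on day 139, 13.7-fold higher. The receptor S1pr2, which holds B cells inside the germinal center, rose from 64.4 through 131 to 235. Il21, the cytokine of follicular helper T cells, was at least 10.6-fold higher, with a day 139 signal of 137. Bcl6 (2420, 1834 and 3907) and Fas (512, 453 and 689), which other cells use as well, did not pass the criteria. Nor did Gcsam (142, 99.1 and 196) and Mybl1 (13.7, 20.3 and 41.1). The median of the list was 0.69, or 0.47 over the 9 genes well above background on both arrays.

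T cell genes were higher in 19 of 20 cases, with 3 that rose and a median of 0.80. The adhesion receptor Cd2 was 3513, 4709 and 8956. Cd3e (2156 to 3529), Cd4 (1455 to 2910) and Cd8a (212 to 365) had log2 ratios of 0.71, 1.00 and 0.79 and did not pass the criteria. Among checkpoint and regulatory T cell genes, Pdcd1, or PD-1, rose from 156 through 201 to 551 and Ikzf2 from 68.6 to 207, while Foxp3 (93.7, 170 and 165) did not pass. Cytotoxic and NK genes had a median of -0.23 (0.10 with spike-in scaling). Within them the granzymes differed: Gzmb fell from 587 to 157, and Gzmk rose from 82.5 to 401 by its brightest probe, with a log2 ratio of 0.15 by the second.

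Signals that place lymphocytes were higher in 7 of 9 homeostatic chemokine and receptor genes, against 50.2% of all genes. Ccr6 of B cells rose from 2170 to 4915. Cxcr5, the receptor that leads cells into follicles, went from 1353 to 2908 and its ligand Cxcl13 from 2025 to 2476, and neither passed. Cxcl12, which retains plasma cells and progenitors, fell from 29485 to 13265, although its second probe had a log2 ratio of -0.30. Antigen presentation genes had log2 ratios above 0 in 11 of 11 genes of MHC class II (median 0.60) and 12 of 12 of class I (median 0.43), and only H2-Ob, a class II modulator of B cells, rose, from 1996 to 4868. Dendritic cell genes (median 0.26) and interferon-stimulated genes (median -0.04, or 0.35 with spike-in scaling) had 0 of 12 and 0 of 24 past the criteria, and Toll-like receptor genes 0 of 13.

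Of 15 complement genes, 1 rose and 1 fell, with a median of 0.26 and log2 ratios from -2.83 to 3.00. C1qa (5969, 9165 and 6969) and C3 (34408, 26124 and 45491), made largely by macrophages and stroma, did not pass the criteria. The receptor C5ar1 of neutrophils and macrophages fell from 162 to 22.8. Smooth muscle genes had a median of -0.46, with 0 of 10 past the criteria, and endothelial genes one of -0.36 (0.04 with spike-in scaling). In the latter only Selp, the P-selectin that slows leukocytes on vessel walls, fell, from 172 to 47.7. Clock genes (median 0.08) and hypoxia genes (median 0.06) lay near the center, and of them only Nfil3, which cytokines also induce, fell, from 806 to 256.

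Blood-forming genes of the red pulp had group medians below 0, by amounts that mostly did not pass the criteria. Among all genes, 49.7% had a log2 ratio below 0 and 2.21% fell. All 10 heme synthesis enzymes had log2 ratios below 0, with a median of -0.58. Of 15 red cell membrane genes, 14 were below 0 (median -0.69) and Ank1, the ankyrin of the red cell skeleton, fell from 1267 to 566. Of 14 erythroid factor and globin genes, 11 were below 0 and 2 above 0, and 0 passed the criteria. Their median was -0.58, with log2 ratios from -1.06 to 1.15. The erythroid factors Gata1 and Klf1, on the lower side, had signals of 9122 and 1990 on day 0 and 4831 and 954 on day 139. Of 13 megakaryocyte and platelet genes, 12 were below 0 (median -0.64), and Gp1ba, the platelet receptor for von Willebrand factor, fell from 546 to 240. Genes of dividing cells were lower in 19 of 19 mitosis genes (median -0.63) and 19 of 20 DNA replication genes (median -0.56), and none passed. Mki67 went from 30690 to 15556. With spike-in scaling the medians of these groups stayed below 0, at -0.27 for red cell membrane genes, -0.24 for platelet genes and -0.22 for mitosis. The median was -0.18 for heme synthesis, for erythroid factors and globins, and for replication.

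Several genes of tissues that touch the spleen were higher on day 139. Of 10 mesothelial genes, 9 rose and 0 fell, and the median of 4.56 was 2.44 over the 6 genes well above background on both arrays. Msln, the surface protein mesothelin (chromosome 17 of mm9, 25885569 to 25885628), had signals of 96.4 on day 0, 389.9 on day 2 and 2282 on day 139, 23.7-fold higher. The uroplakin gene Upk3b was 4.84, 45.5 and 459, at least 35.5-fold higher. The keratin Krt19 was 20.6, 170.4 and 486, and the mucin Muc16, outside the list, was 15.2, 52.2 and 362. These had their highest signal on day 139, whereas the keratins Krt8 (88.2, 454 and 272) and Krt18 (131, 672 and 427) rose as well but had it on day 2. Wt1, a factor that mesothelium shares with splenic stroma, did not rise, with signals of 1492, 1443 and 1057.

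Fat cell genes were mixed. Adiponectin (Adipoq) and the lipid droplet gene Cidec rose, from 21.9 to 87.0 and to a signal of 59.6 that was at least 4.61-fold higher. Cfd, or adipsin, was 166, 91.96 and 1327. Fabp4 (1260, 744 and 1194) and Lpl (636, 966 and 741), which macrophages and endothelium also use, did not pass the criteria. Of 13 exocrine pancreas genes, 4 rose and 0 fell. Amylase (Amy2a5) was 21.3, 43.4 and 404, and Cpa1, Cpb1 and Prss2 were well above background on day 139 alone. The median of 1.96 was 0.71 over the 7 genes well above background on both arrays and 0.39 with another background correction. What share of the day 139 RNA came from tissue on the spleen surface was not tested.

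Islet genes had their highest signals on day 2. The insulin genes Ins1 and Ins2 had signals of 27132 and 30998 on day 0, 36989 and 42566 on day 2, and 13369 and 15845 on day 139, with log2 ratios of -1.02 and -0.97 that did not pass the criteria. The probes may read each other. Glucagon (Gcg) fell from 879 to 311. Of 18 islet endocrine genes 11 had a log2 ratio below 0 (median -0.64), against 49.7% of all genes. Iapp, secreted with insulin, was 3267, 16733 and 2799, and Chgb, a granule protein, 249, 2779 and 327, so both were close to their day 0 signal on day 139. Ttr, a transthyretin that islet cells make, was at least 5.31-fold higher, with signals of 510 on day 2 and 68.7 on day 139.

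**Figure D5:**
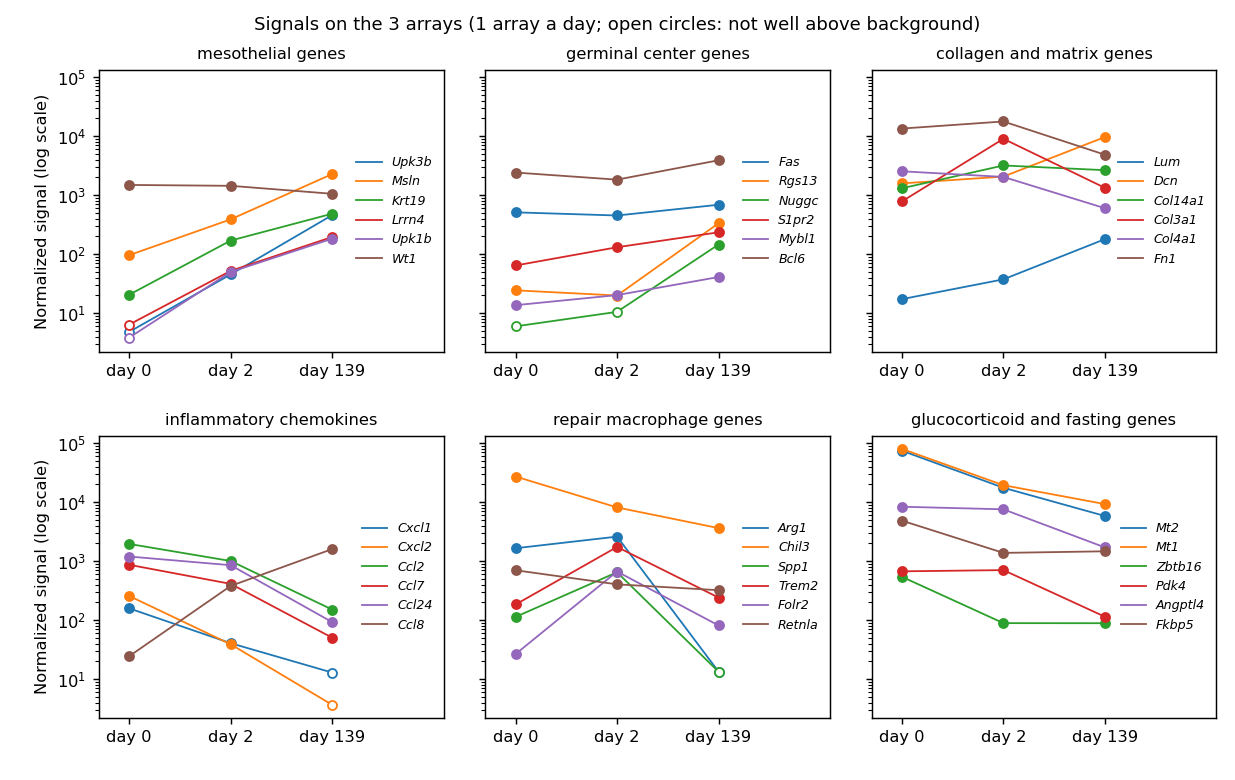
Normalized signals (y axes, log scale, arbitrary scanner units) on day 0, day 2 and day 139 (x axes) for 6 genes from each of 6 lists, 1 array a day, with open circles where a probe was not well above background. The mesothelial genes plotted, other than Wt1, climb over both steps (Msln 96.4, 389.9 and 2282), germinal center genes climb mainly to day 139 (Rgs13 24.4, 20.0 and 334), and the chemokines plotted, other than Ccl8, fall (Ccl2 1955, 1005 and 151).

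Further genes with large bounds belonged to none of these lists. Fmo2, a flavin monooxygenase, had the largest bound among rises, with a signal of 474 on day 139, at least 36.7-fold higher. Sfrp2 and Cpz, secreted proteins that act on Wnt signals, had day 139 signals of 314 and 308, at least 24.2-fold and 23.8-fold higher. Cpz was 69.3 on day 2 already. Ms4a5, of a family of membrane proteins, and Sult2a8, a sulfotransferase, had day 139 signals of 287 and 216, at least 22.2-fold and 16.7-fold higher, and Sult2a8 was 208 on day 2. The annexin Anxa8 (41.1, 193 and 539.9) and Nkain4 (21.1, 61.2 and 339.5) rose 13.1-fold and 16.1-fold. Among falls, Serpinb2, an inhibitor of plasminogen activators made by activated monocytes, had signals of 573, 314 and 33.2. Ptgds, a prostaglandin D2 synthase, was 495 on day 0, not well above background on day 2 and 36.2 on day 139, and the neuronal factor Phox2a was at least 13.9-fold lower.

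Of 10 basophil and mast cell genes, 1 rose and 2 fell, with a median of -0.57 (-0.18 with spike-in scaling). Hdc, the histamine-making enzyme of basophils, mast cells and some neutrophils, was 3758, 684 and 388. The basophil protease Mcpt8 rose from 27.1 to 103.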

How the data were processed

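Gene expression was measured in spleen RNA on 3 one-color Agilent SurePrint G3 Mouse 8x60K arrays, 1 for each of day 0, day 2 and day 139, with Cy3-labeled cRNA hybridized to 60-base probes. Kits for RNA preparation are named differently in the methods and the labels. The authors deposited scanner files, whose intensity values had their background subtracted by Agilent Feature Extraction (version 9.5.1.1 per the methods and labels, 10.7.1.1 per the file headers), and a table of processed intensity values per probe. Set against the scanner files, that table held linear, uncentered means of the processed signal of a probe's spots, quantile normalized over the 3 arrays by the authors, and each column had a median of 22.0. It was used here as deposited, with a floor of 1 and log2 taken. Quantile normalization gives all arrays the same distribution and hides a change in total RNA. It also gives the brightest probe the same value on every array.

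A probe entered when most of its spots were well above background on day 0 or day 139. Of 55681 probes, 54.4%, 53.8% and 50.4% were so on day 0, day 2 and day 139. The lowest normalized signals well above background were 12.9, 14.0 and 19.3. The spots of probes present several times had a median coefficient of variation of 4.71%, 5.68% and 4.15%, and no gene spot was saturated. With 1 array a group, the number of arrays limits the precision. The criteria (ratio of 1.5 or 0.66, Z-score of 2 or -2) are those of the study, whose Z-score formula was not found in the sources used here, so a local one over 1000 probes was used. It was run on simulated arrays that had the same noise at every brightness. How it handles noise that varies with brightness, as in these data, was not tested.

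Array names were matched to RefSeq genes of GRCm38.p6 by accession (19010 probes), symbol (1835) or synonym (294), and each gene took its brightest probe. Of 4510 genes with several probes, 3 had probes past the criteria in opposite directions and 146 had only some past them. Positions of probes were taken from the array's mm9 annotation. Promoters are from RefSeq (GRCm38.p6), and proteins were not used here.

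The genes named are the 10 largest and 10 smallest ratios of genes well above background on both arrays, the 8 largest bounds in each direction, and members of the 43 gene lists with large ratios or defining roles. Il21 and the sets the text marks as chosen after their values were seen are exceptions, and Alg8, Tiam1, Calca and Dct stand under other observations. The members and lists were chosen with earlier results of these data known. The study's Tlx1-related genes were left out. Some further genes are not reported here. Alternatives were scanner signals without outlier spots, 75th percentile and spike-in scaling, a normexp correction (offset 50, limma 3.58.1, R 4.3.3), other detection filters, a floor, other Z-score spreads and windows, fold limits and the median over a gene's probes. Other calculations used Python 3.11.15, numpy 2.4.6 and pandas 2.3.3.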

Additional observations from a re-analysis of the deposited data

How the results depend on the processing

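With 1 array a day, the values describe these arrays and not the spread between mice. No paired analysis was possible because each group has 1 array. The 804 higher and 648 lower probes became 1481 and 363 with spike-in scaling, 1830 and 1797 with a Z-score from the scaled median absolute deviation, 1836 and 2121 with a ratio of 2 or 0.5 alone, and 3853 and 4529 with a ratio of 1.5 or 0.66 alone. With a floor at the lowest value that stood well above background, 1414 were higher and 549 lower. The share of higher among all called probes was 55.4%, against 80.3% with spike-in scaling, 72.0% with that floor, and 46.4% and 46.0% with the ratio alone. The other alternatives gave 774 to 975 higher and 538 to 909 lower probes. All 142 genes past the criteria among the 628 followed kept their direction under every alternative in which they had a value. Alternatives of detection, Z-score and fold limit leave a gene's ratio as it is, so they could not turn a direction. The median log2 ratio of all probes moved only from -0.03 to 0.36 with spike-in scaling, and to -0.04 with 75th percentile scaling. Genes past the criteria lie beyond a ratio of 1.5 or 0.66, so shifts of that size could not turn them either. Log2 ratios moved by at least their scanner error for 567 genes with spike-in scaling and 149 with the normexp correction. How many genes stayed past the criteria was not counted. List medians changed sign for 8 of 43 lists, and for 0 of the 19 with a median beyond 1.5-fold, which the spike-in shift of the center was too small to turn. The mesothelial median was 1.86 with the normexp correction, the exocrine median 0.39, the chemokine median -1.36 and the cytokine median -0.80. The cause of these shifts was not tested.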

Other observations

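These values belong to no comparison above and were chosen after they had been seen. Of 5 pigment cell genes, 4 were well above background on day 0 alone. Both probes for Dct, the dopachrome tautomerase of melanin synthesis, read 1123 and 465 on day 0 and were not well above background on day 2 or day 139, at least 58.3-fold and 24.1-fold lower on day 139. Tyrp1 (82.7 on day 0), Mlana (149) and Pmel (151), which act in the pigment granule, were likewise not well above background on the later days. Tyr, the first enzyme of the pathway, had signals of 26.1, 41.2 and 32.3. Where these transcripts came from was not tested.

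Some large rises rested on 1 probe of a gene. A probe for Alg8, a glucosyltransferase, read 122 on day 0 and on day 2 and 5140 on day 139 (42.0-fold), while the other probe of the gene read 786, 758 and 504. The probes for Calca, which encodes calcitonin and its related peptide, differed in direction: one was well above background on day 139 alone (442, at least 34.1-fold higher) and the other on day 0 alone (35.0). Tiam1 (132, 134 and 1798) and Slc27a1 (365, 378 and 3659) had 1 member probe each.

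Odorant receptor genes with a rise included Olfr846 and Olfr930, with day 139 signals of 174 and 144, at least 13.5-fold and 11.1-fold higher.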
